A study of Danio rerio with 2 samples.

Results

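The protein-coding genes of the cytosolic ribosome were followed across the cells of the zebrafish larval gut. Members were taken by name, as every gene whose symbol begins with rpl or rps and a digit, leaving out the rps6k kinases, which phosphorylate ribosomal protein S6 and are not part of the ribosome. The rule found 77 of the 27056 gene symbols in the annotation, 43 rpl genes of the large subunit and 34 rps genes of the small subunit, and every one of the 77 had at least 10 unique molecular identifiers (UMIs, 1 for each captured transcript). rpl7l1, a gene related to rpl7, and rps19bp1, which codes for a protein that binds Rps19, carry such names although neither is a core subunit. The symbols rpl26 and rpl37 each stood for 2 annotated features, whose counts were added.

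Ribosomal proteins assemble with ribosomal RNA into the small subunit, which decodes messenger RNA, and the large subunit, which joins amino acids. Their messenger RNAs are among the most abundant in animal cells, and vertebrates are known to control their translation together through a pyrimidine tract at the start of each message. Dividing cells need new ribosomes, so progenitors of renewing tissues such as the gut epithelium are the cells in which ribosome production is usually studied, whereas mature enterocytes devote much of their RNA to digestion and absorption.

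The study compared wild-type (WT) larvae with larvae lacking il26, a gene for a cytokine of the IL-10 family, which had been disrupted with CRISPR/Cas9. Guts were dissected at 5 days post-fertilization (dpf) from the offspring of WT and il26-/- adults that were clutchmates kept in separate tanks, and 50 guts, in 5 tubes of 10, made 1 single-cell library per genotype, WT and il26KO. Tank and genotype therefore cannot be told apart, and with 1 library each there was no test between genotypes. All intervals given are exact 95% intervals that cover counting error only, and cells of a library are not replicates.

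After filtering, 5122 WT and 3841 il26KO cells were kept, 8963 in all, with medians of 10214.5 and 14257 UMIs per cell, and 10 kept barcodes occurred in both libraries. il26 itself had 1 UMI in the kept WT cells and 0 in the il26KO cells, where a count of 0 allows up to 0.0311 CPM (UMIs of a gene for each 1000000 UMIs), so its count did not check the genotype labels. Clustering, done without the members, gave 30 clusters, which fixed markers placed in 15 classes, each written with -like because it was named from those markers here. Of the 10 progenitor markers listed, 9 were found and 6 stood more than 2-fold above mature epithelial cells in both libraries. In progenitor-like cells the Notch target her15.1 reached 1506 CPM (WT) and 1533 CPM (il26KO), against 42.9 and 22.0 CPM in mature cells, and the secretory fate factor ascl1a was at 101 and 135 CPM against 1.58 and 1.60. The remaining 3 did not mark the class, since prom1b was at 0 and 0.48 CPM, cftr at 1.51 and 18.3 CPM against 18.9 and 19.8, and lgr4 at 30.6 and 45.8 CPM against 73.2 and 71.0. Mature epithelial cells here means the 6 classes of anterior enterocyte-like, ileal enterocyte-like, lysosome-rich enterocyte-like, goblet-like, enteroendocrine-like and best4 enterocyte-like cells. Of the goblet list, agr2, sytl2b, foxa3 and stard10 were raised in the goblet-like cluster. The mucin genes muc2.1 and muc5.3, atoh1b and galnt12 were not among its raised markers. Its most abundant gene outside the members in WT was fabp6, of the ileal enterocyte list, at 3.21% of UMIs.

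Members made up 24.5% of all UMIs in the WT cells and 23.8% in the il26KO cells. The classes were ordered in much the same way in both libraries, with leukocyte-like and progenitor-like cells at the top and neuron-like and enteroendocrine-like cells at the bottom. Leukocyte-like cells had the highest share, 37.6% in WT (225 cells) and 37.0% in il26KO (205 cells). Progenitor-like cells followed at 32.2% (219 cells) and 31.8% (254 cells). Vascular endothelial-like cells had 27.2% and 26.4%, and the 3 enterocyte-like classes of the absorptive lineage lay close to each other, at 24.8% and 23.3% in anterior, 24.7% and 24.6% in lysosome-rich and 23.5% and 23.4% in ileal enterocyte-like cells. Goblet-like cells had 21.7% and 21.3%, best4 enterocyte-like cells 18.4% and 19.3%, and enteroendocrine-like cells, which release hormones, 12.9% in both libraries. In the enteroendocrine-like class the insulin gene ins was the most abundant gene outside the members in WT, at 4.78% of UMIs. It was among the leading ones in il26KO also. Whether this class held cells of the pancreatic islets was not tested. Neuron-like cells had 11.8% (52 cells) and 13.6% (56 cells). The split between the subunits hardly moved, with small-subunit genes holding between 42.8% and 44.2% of member UMIs in every class and library.

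**Figure D1:**
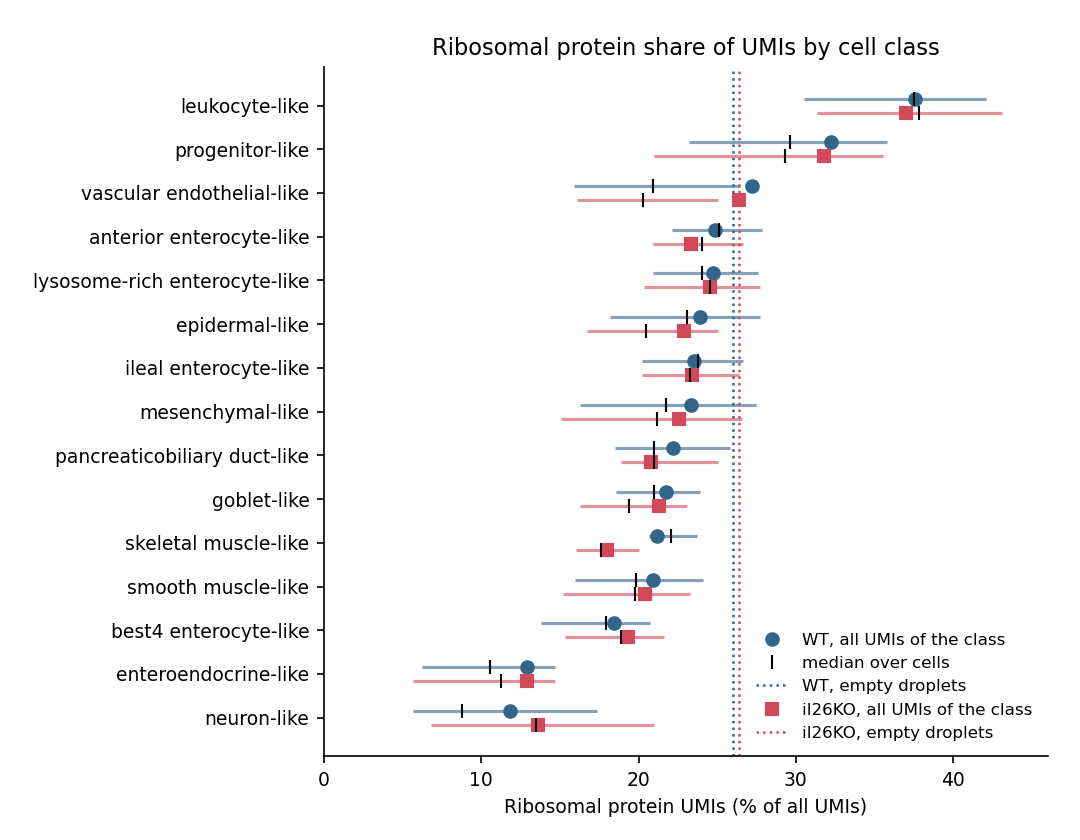
Share of UMIs (percent, horizontal axis) in the 77 cytosolic ribosomal protein genes by cell class, where large points give the summed share in WT (circles) and il26KO (squares), ticks the median cell, bars the middle range from the lower to the upper quartile of cells, and dotted lines the empty droplets. The leukocyte-like class lies at 37.6% and 37.0%, the progenitor-like class at 32.2% and 31.8%, and the enteroendocrine-like class at 12.9% in both libraries.

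Droplets without a cell held 26.0% member UMIs in WT and 26.4% in il26KO, the level of free RNA in each library. Above that level lay 3 WT classes and 2 il26KO classes. A summed share follows the deepest cells, so in vascular endothelial-like cells, with sums of 27.2% and 26.4%, the median cell had 20.9% and 20.3%. Single cells varied widely within a class: the middle range (lower to upper quartile) of progenitor-like cells ran from 23.2% to 35.8% in WT and from 21.0% to 35.6% in il26KO. Subtracting the mean profile of an empty droplet from each cell left the comparison of progenitor-like with mature cells at log2 ratios of 0.43 in WT and 0.47 in il26KO. Empty droplets held 10 to 100 UMIs each, few beside the median UMIs of kept cells, so this subtraction could hardly move the ratios. How much free RNA the cells held was not tested.

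The classes at the top were not uniform. Of the progenitor-like clusters, the one led by anxa4, neurl1aa and her15.1 had 34.1% member UMIs in WT (182 cells) and 32.3% in il26KO (203 cells). The other, led by hmgn2, stmn1a and the proliferation marker mki67, had 27.4% (37 cells) and 31.1% (51 cells), so that in both libraries the cluster led by mki67 was lower in ribosomal protein UMIs. Within the vascular endothelial-like class, a cluster led by nanos1 and hells had 42.2% (28 cells) and 40.9% (29 cells), the highest of any cluster, and without it that class had 22.5% and 21.4%. nanos1 is best known from germ cells and hells from DNA methylation. The cluster was named from 6 raised markers of the vascular list, kdrl, cdh5, fli1a, pecam1, tie1 and cldn5b. Both leukocyte-like clusters were high, at 37.7% and 36.8% in the larger and 37.2% and 37.4% in the smaller.

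The main comparison asked how the members differ between progenitor-like and mature epithelial cells. Summed over members, progenitor-like cells were higher per UMI by 0.42 on the log2 scale in WT (0.42 to 0.43, 1.34-fold) and by 0.46 in il26KO (0.46 to 0.47, 1.38-fold). This direction turned to -0.36 and -0.41 when the groups of cells within each library were scaled by the median gene ratio instead of by total UMIs. That scaling took the median over tested genes with UMIs in both groups of cells, whereas the medians of all genes given below cover every tested gene. The median gene itself was higher per UMI in progenitor-like cells, and scaling by it shifted every log2 ratio by 0.78 in WT and 0.88 in il26KO. Per total UMI, then, members took a larger share in progenitor-like cells, while relative to the median gene they took a smaller one. Against single classes on the total-UMI scale the log2 difference was 0.38 and 0.45 for anterior, 0.38 and 0.37 for lysosome-rich and 0.46 and 0.44 for ileal enterocyte-like cells, 0.57 and 0.58 for goblet-like, 0.81 and 0.72 for best4 enterocyte-like, and 1.32 and 1.3 for enteroendocrine-like cells. Progenitor-like cells were below leukocyte-like cells in both libraries (log2 ratio -0.22 in each).

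Other properties moved with the comparison. Progenitor-like cells had medians of 5084 (WT) and 3435 (il26KO) UMIs against 13973 and 24924 in mature cells, and medians of 2.24% and 2.34% mitochondrial UMIs against 5.10% and 4.60%. In cells of like depth the share was higher in progenitor-like than in mature cells in 4 of 4 depth bands in each library. The pooled mature share holds classes of low share, and absorptive enterocyte-like cells of the lowest depth were not below progenitor-like cells in WT. Below 2000 UMIs the WT shares were 24.1% in progenitor-like, 24.1% in anterior, 24.3% in ileal and 24.3% in lysosome-rich enterocyte-like cells, against 5.75% in enteroendocrine-like cells, and from 2000 to 5000 UMIs they were 25.9% in progenitor-like and 26.1% in anterior enterocyte-like cells. In il26KO the anterior enterocyte-like shares were 25.2% and 26.4% in these bands, against 26.7% and 26.9% in progenitor-like cells. Against all mature cells the gap was small below 2000 UMIs, 24.1% against 22.1% in WT and 26.7% against 22.5% in il26KO. It was widest between 5000 and 20000 UMIs, 34.6% against 20.1% in WT (84 progenitor-like cells) and 31.9% against 18.6% in il26KO (71 cells), which gave log2 ratios of 0.79 and 0.78. At 20000 UMIs and above the shares were 31.5% against 24.7% in WT and 33.4% against 23.5% in il26KO. Leukocyte-like cells below 2000 UMIs likewise had a low share, 20.0% and 19.0%. Mature cells also gave more of their UMIs to a few abundant transcripts, the 20 most abundant other genes holding 21.0% in WT and 19.2% in il26KO against 16.0% and 15.7% in progenitor-like cells. In ileal enterocyte-like cells fabp6, a carrier of bile acids, alone held 14.8% and 12.8%. The part of depth, mitochondrial UMIs and abundant transcripts in the difference was not tested beyond these values.

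**Figure D2:**
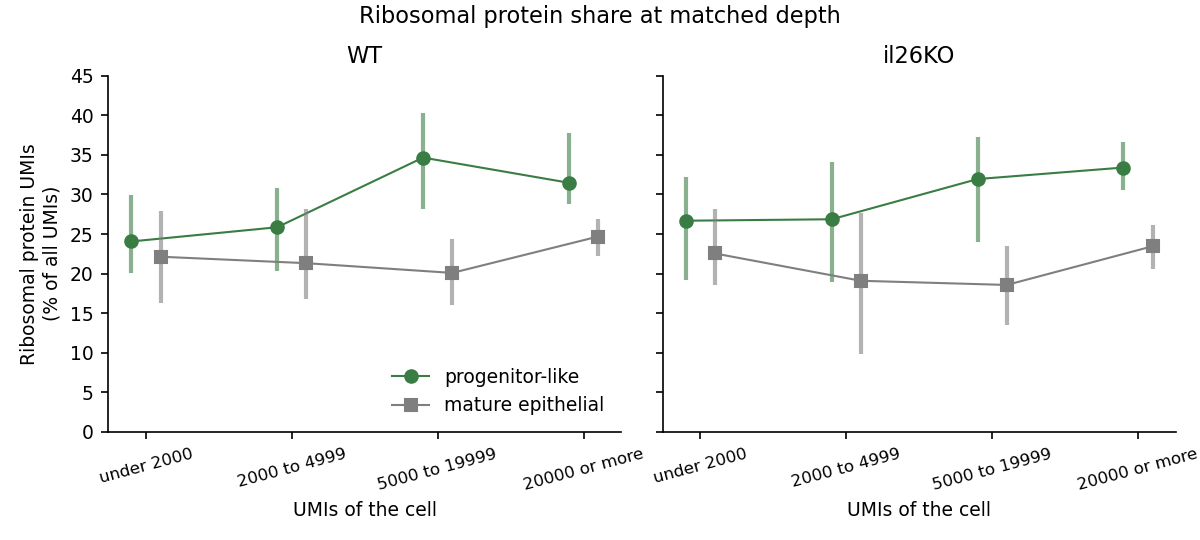
Share of UMIs (percent, vertical axis) in the cytosolic ribosomal protein genes by depth band of the cells (UMIs per cell, horizontal axis) in WT (left) and il26KO (right), with points for the summed share of progenitor-like and mature epithelial cells and bars for the quartiles of single cells. Progenitor-like points lie above mature ones in all 4 bands of both libraries, at 34.6% against 20.1% in WT cells of 5000 to 20000 UMIs.

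The members moved by similar amounts, gene for gene. On the total-UMI scale 75 of 77 lay above 0 in both libraries, where 66.3% of the 20090 genes tested in WT and 66.6% of the 20622 in il26KO did so, but after scaling by the median gene ratio the number fell to 2 in WT (rpl6 at 0.27 and rpl4 at 0.01) and 0 in il26KO. These counts depend on the genes over which that median was taken. Per total UMI rpl5b (0.76 and 0.83) and rpl23a (0.70 and 0.79), for example, lay above the medians of all genes tested, 0.64 and 0.71. For 74 members the counting interval lay above 0 in both libraries, a number that depends on abundance, and the share of all genes was not computed. The log2 ratios of 69 members were between 0.2 and 0.8 in both, and the quartiles were 0.37 and 0.51 in WT and 0.37 and 0.56 in il26KO. Large differences were rare: 1 member in WT (rpl6) and 0 in il26KO reached 2-fold higher, against 39.3% and 42% of all genes. At least 2-fold lower were 2 members in each library, against 18.7% and 19.6%. These percentages include genes with few UMIs, whose ratios scatter more widely by counting error alone. The members were not compared with genes of like abundance. The median member was at 0.43 in WT and 0.48 in il26KO, below the medians of all genes, 0.64 and 0.71. By subunit, 43 of 43 rpl genes and 32 of 34 rps genes were above 0 in each library on that scale, with summed log2 ratios of 0.42 and 0.46 for rpl genes and 0.44 and 0.47 for rps genes.

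The highest ratio in WT and on the mean of both libraries, though not in il26KO, belonged to rpl6, a large-subunit surface protein, whose CPM in progenitor-like against mature cells was 1710 against 823 (WT) and 2003 against 1171 (il26KO), with log2 ratios of 1.05 and 0.77. rpl5b, a copy of the gene for Rpl5, which carries the 5S ribosomal RNA into the large subunit, had 1570 against 924 CPM in WT and 1662 against 938 CPM in il26KO (0.76 and 0.83). rpl4, whose protein lines the exit tunnel of the growing chain, had 1458 against 840 CPM and 1451 against 865 CPM (0.79 and 0.75). These large-subunit genes were thus higher in progenitor-like cells of both libraries per total UMI. Under the median gene ratio only rpl6 and rpl4 in WT stayed above 0 among them. Per total UMI each of them lay above the medians of all genes tested, 0.64 in WT and 0.71 in il26KO. The small-subunit gene rps4x had 3932 against 2465 CPM in WT and 4122 against 2291 CPM in il26KO (0.67 and 0.85). rpl23a, at the mouth of the exit tunnel, had 3502 against 2152 CPM and 3619 against 2086 CPM (0.70 and 0.79).

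Low among the members stood rps27l, a copy of the gene for Rps27 that is known in human cells as a target of p53. Its CPM in progenitor-like against mature cells was 82.9 against 246 (WT) and 101 against 245 (il26KO), with log2 ratios of -1.57 (-1.80 to -1.35) and -1.27 (-1.48 to -1.08). On total UMIs rps27l thus ran against most members with intervals clear of 0, while under the median gene ratio nearly all members lay below 0 with it. rps12, a small-subunit protein that marks less fit cells in Drosophila cell competition, was among the lower ratios per total UMI, at 0.24 and 0.18, and these lie farther below the medians of all genes than most members do. rpl11, the partner of Rpl5 in the 5S particle that binds Mdm2, stood at 0.17 and 0.27, and rps2, at the messenger RNA entry of the small subunit, at 0.21 and 0.25. rps19bp1 had 0.20 and 0.33 with intervals that include 0.

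**Figure D3:**
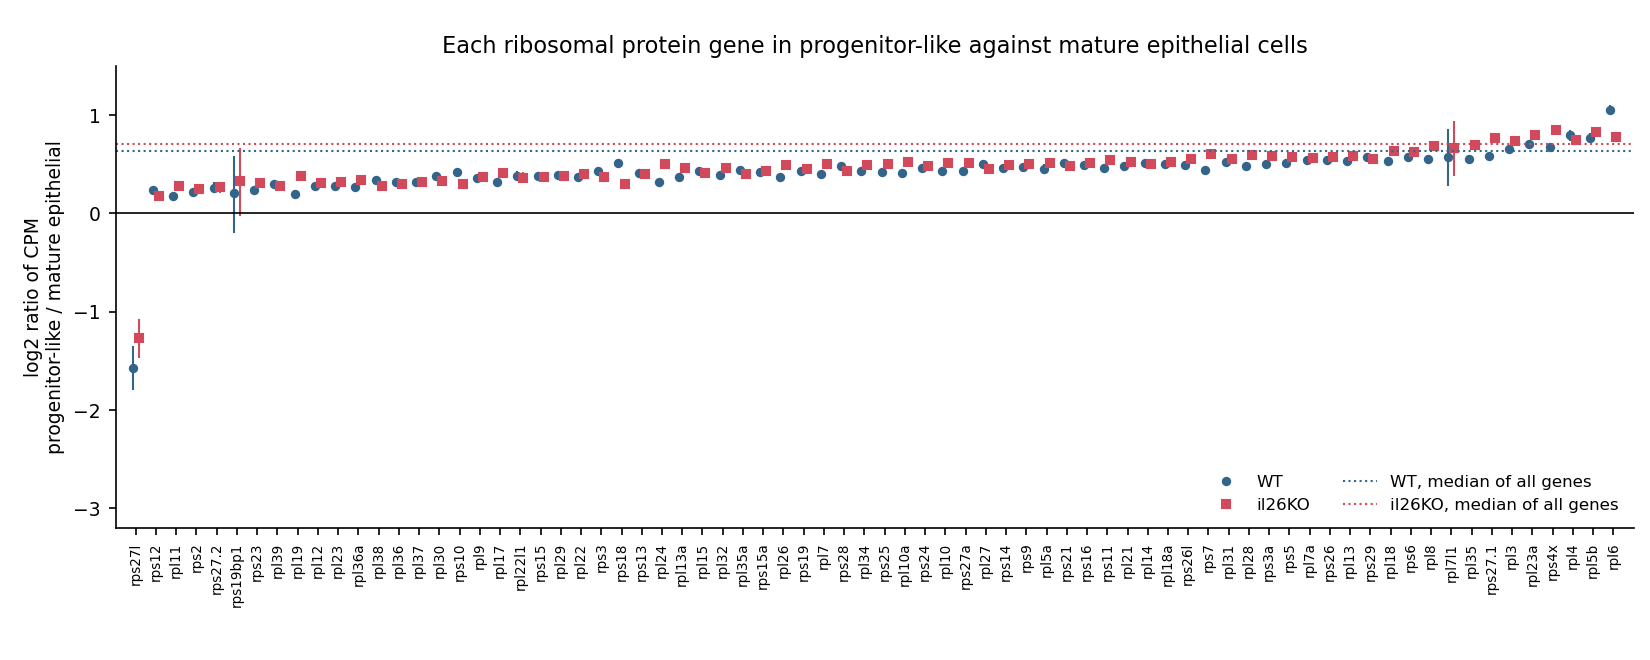
Log2 ratio of CPM in progenitor-like over mature epithelial cells (vertical axis, scaled by total UMIs) for 74 of the 77 members (horizontal axis, ordered by the mean of both libraries), with circles for WT, squares for il26KO, bars for exact 95% counting intervals and dotted lines for the median of all genes, 0.64 and 0.71. On this scaling 75 of all 77 members lie above 0 in both libraries, against 2 in WT and 0 in il26KO when scaled by the median gene ratio, and rps27l lies at -1.57 and -1.27.

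Other parts of the translation machinery were compared from lists of genes. Of the ribosomal genes whose symbols fall outside the rule, 7 of 7 found, among them the stalk gene rplp1 (0.47 and 0.44) and the scaffold rack1 (0.59 and 0.57), were above 0 in both libraries, with medians of 0.47 and 0.45, close to the members and likewise below the median of all genes. Of 33 initiation and elongation factors and related genes tested, 31 in WT and 32 in il26KO were above 0, with medians of 0.63 and 0.76. Of all genes tested, 66.3% in WT and 66.6% in il26KO were above 0. The RNA helicase eif4a1a was the highest of them in WT at 1.85 and stood at 1.73 in il26KO. In il26KO pabpc4 was the highest at 3.77, against 1.42 in WT, at only 12.1 and 1.51 CPM in progenitor-like cells. Ribosome biogenesis genes, which act in the nucleolus to make and process ribosomal RNA, differed by far more than the ribosomal proteins. Of these, 48 of 62 in WT and 53 in il26KO were at least 2-fold higher, against 39.3% and 42% of all genes. Their medians were 1.44 and 1.70, above the median of all genes. ncl, for nucleolin, had 411 CPM in progenitor-like against 122 CPM in mature WT cells and 523 against 107 CPM in il26KO (1.75 and 2.30), and fbl, the methyltransferase of ribosomal RNA, was at 1.75 and 1.92. The exceptions included wdr3 at -0.35 and 0.09 and sbds, a maturation factor of the large subunit, at -0.07 and -0.58. Genes for mitochondrial ribosomal proteins, which build a separate ribosome, were near 0 per total UMI, with 37 of 74 above 0 in WT and 24 in il26KO and medians of 0.02 and -0.13, which lie below the medians of all genes, 0.64 and 0.71. Cell cycle genes were higher in progenitor-like cells, with medians of 2.95 and 2.66 for 18 S-phase genes and 4.13 and 3.93 for 18 G2/M genes. Each of these was at least 2-fold higher in both libraries, against 39.3% (WT) and 42% (il26KO) of all genes.

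Across all classes, members were at their highest in leukocyte-like cells. That class held the highest CPM of 72 of 77 members in WT and 68 in il26KO, where it did so for 6.55% and 5.72% of all genes with at least 100 UMIs. Progenitor-like cells were highest for 2 members in WT (rps27.2 and rpl7l1) and 6 in il26KO, against 7.76% and 10.2% of all genes. The lowest class was neuron-like for 60 members and enteroendocrine-like for 15 in WT, and enteroendocrine-like for 49 and neuron-like for 27 in il26KO. The share of all genes that were lowest in these classes was not computed. Most members had their lowest CPM in one of these classes in both libraries, with the order of the classes exchanged. Outside this pattern were rps27l, highest in lysosome-rich enterocyte-like cells in both libraries, and rps19bp1, highest in epidermal-like cells in both.

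Since the classes differ so much in total, the make-up of the member UMIs was compared as the percent each gene held of them. Among the 73 members with at least 50 UMIs in every class, a limit that leaves out rps27l, rps19bp1 and rpl7l1, rpl22l1 varied most, with an SD over classes of 0.35 on the log2 scale. It is the paralog of rpl22, and in mouse it is known to compensate when Rpl22 is lost. rpl22l1 held 0.507% of member UMIs in WT and 0.437% in il26KO progenitor-like cells, 0.549% and 0.479% in anterior enterocyte-like cells, and 0.249% in best4 enterocyte-like cells of both libraries. rpl6 came next with an SD of 0.29, from 0.312% in WT and 0.386% in il26KO lysosome-rich enterocyte-like cells to 0.660% and 0.701% in leukocyte-like cells. Other genes of large spread were rpl5b, rpl3 and rps18, with SDs between 0.21 and 0.22, where the median member had 0.098. rpl3, a large-subunit gene, held 1.39% and 1.25% in smooth muscle-like cells against 0.828% and 0.813% in goblet-like cells. rps18, of the small-subunit head, was at 3132 and 2982 CPM in leukocyte-like cells and at 919 and 941 CPM in enteroendocrine-like cells, but held a like part of member UMIs there, 0.834% and 0.806% against 0.713% and 0.731%.

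Paralogs were not used in one fixed proportion. Reads from near-identical copies can be assigned to either and the split within a pair is uncertain. rps27l made up 8.87% in WT and 8.03% in il26KO of the UMIs of rps27.1 and rps27l in lysosome-rich enterocyte-like cells and 8.09% and 9.93% in anterior enterocyte-like cells. In progenitor-like cells the values were 1.88% and 2.29%, and in leukocyte-like cells 1.26% in both libraries. Its CPM was 318 in WT and 266 in il26KO lysosome-rich enterocyte-like cells against 61.6 and 65.0 in smooth muscle-like cells. The order by CPM was not the same as in the pair. Smooth muscle-like cells, at 2.57% and 2.81% of the pair, lay above progenitor-like cells there but below them in CPM. rps27.2 took 22.2% and 21.7% of its pair with rps27.1 in progenitor-like cells, 26.3% and 28.2% in mature cells, and 18.5% and 18.3% in leukocyte-like cells. rpl22l1 took 17.2% and 17.5% of its pair with rpl22 in best4 enterocyte-like cells, 34.0% and 31.6% in progenitor-like cells and 33.7% and 32.1% in mature cells, so that here progenitor-like and mature cells were alike. rpl5b took 48.4% and 50.6% of its pair with rpl5a in progenitor-like cells against 43.0% and 45.3% in mature cells. rpl7l1 was a minor partner, at 0.97% and 1.01% of its pair with rpl7 over all cells. rps26l was the major copy of its pair with rps26, at 68.4% of the pair in WT and 64.6% in il26KO. It was lower in il26KO in 15 of 15 classes, in 13 of them with intervals that did not overlap. The second gene was lower without overlap in 7 classes for rpl22l1, 1 each for rpl5b and rps27l, and 0 for rps27.2 and rpl7l1. No share over all genes was computed, and the classes come from the same 2 libraries. In empty droplets the log2 ratio of il26KO over WT for rps26 was 0.36.

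**Figure D4:**
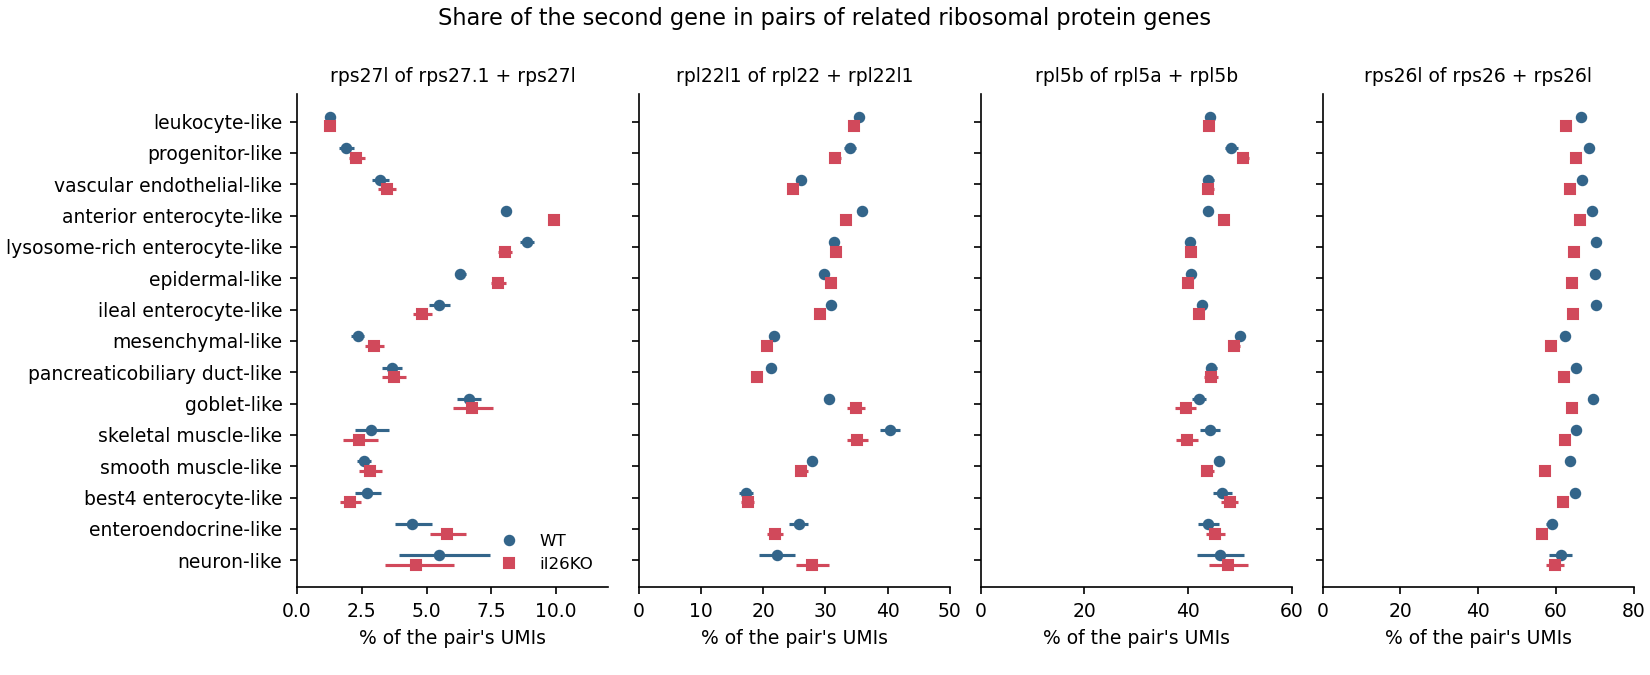
Percent of the UMIs of a pair of related genes that came from the second gene (horizontal axis) by cell class, 1 panel for each of 4 pairs, with circles for WT, squares for il26KO and bars for exact 95% counting intervals. The rps27l part is 8.87% and 8.03% in lysosome-rich enterocyte-like cells and 1.88% and 2.29% in progenitor-like cells, and the rpl22l1 part is lowest in best4 enterocyte-like cells, at 17.2% and 17.5%.

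The second comparison set il26KO beside WT. Differences in the summed members were small in nearly every class: the log2 ratio of il26KO over WT was -0.04 over all kept cells, -0.06 in mature epithelial cells and -0.02 in progenitor-like cells, with the same sign when scaled by the median gene ratio (-0.07, -0.16 and -0.14). Among the mature classes, anterior enterocyte-like cells, which held most of the mature UMIs, stood at -0.09. The others were closer to 0 or above it, at -0.01 in ileal and in lysosome-rich enterocyte-like, -0.03 in goblet-like, -0.003 in enteroendocrine-like and 0.07 in best4 enterocyte-like cells. Of the 15 classes, 12 were lower in il26KO beyond counting error, 2 were higher and 1, the enteroendocrine-like class, did not differ beyond it. Under the median gene ratio 5 were higher and 10 lower. The classes that were higher on both scalings were best4 enterocyte-like cells, 0.07 (0.06 to 0.08), and neuron-like cells, 0.20 (0.18 to 0.22). Skeletal muscle-like cells had the lowest value, -0.24, from 50 WT and 18 il26KO cells, and it turned positive under the median gene ratio. Free RNA in empty droplets stood at 0.02. These intervals hold no spread between animals or libraries. Depth differed between the libraries, with medians of 24924 UMIs in il26KO against 13973 in WT for mature cells and 3435 against 5084 for progenitor-like cells. The progenitor-like clusters went opposite ways. The one led by anxa4 was lower in il26KO (34.1% in WT and 32.3% in il26KO) and the one led by mki67 higher (27.4% and 31.1%). The sign in progenitor-like cells also turned with depth. The share was lower in il26KO between 5000 and 20000 UMIs (34.6% in WT and 31.9% in il26KO, log2 ratio -0.12) and higher in the other bands, at 24.1% and 26.7% below 2000 UMIs, 25.9% and 26.9% from 2000 to 5000, and 31.5% and 33.4% from 20000. In mature cells of 5000 to 20000 UMIs the log2 ratio was -0.11, and the share was higher in il26KO only below 2000 UMIs, at 22.1% and 22.5%.

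Gene by gene, no member passed a log2 difference of 0.5 in progenitor-like cells in either direction, where 22.6% of the 13910 genes tested were at least that much higher and 14.9% at least that much lower in il26KO. There 26 of 76 members were above 0, against 58.3% of all genes, and the median member was at -0.03 against 0.11 for all genes. In mature epithelial cells 16 of 77 were above 0, against 59.9%, and 1 member, rpl6 at 0.51, passed 0.5, against 17.5% of genes, while 0 members fell to -0.5 or below, against 11.2%. Over all kept cells 18 of 77 were above 0, against 53.7%, and 0 passed 0.5 in either direction, against 13.2% of genes at least that much higher and 11.2% at least that much lower. Counting intervals lay below 0 for 30 members and above 0 for 12 in progenitor-like cells, and below 0 for 58 and above 0 for 15 in mature epithelial cells. The share of all genes with such intervals was not computed. Intervals narrow as counts grow, so these numbers depend on abundance as well as on the size of the difference. The percentages of genes past 0.5 depend on abundance too. The genes tested include ones with few UMIs, whose ratios scatter more widely by counting error alone. Nearly all members are abundant, and they were not compared with genes of like abundance. Whether the members differed less than such genes was therefore not tested.

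A few members had the same sign across cell types, and such small counts say little about the members as a group. Among the 14 classes with at least 20 cells in each library, 4 of 73 members tested were higher in il26KO in every class (rpl26, rpl29, rpl6 and rps26). Of the 581 genes tested, members included, 2.24% were. Only 1 of the 73 (rps10) was lower in every class, close to the 1.03% of the 581 genes. rpl26, near the exit of the peptide tunnel, went from 2277 (WT) to 2912 CPM (il26KO) in progenitor-like cells, by 0.35 (0.30 to 0.41) on the log2 scale, and was above 0 in 15 of 15 classes on both scalings, from 0.04 in skeletal muscle-like to 0.92 in neuron-like cells. rpl29 was above 0 in 14 of 15 classes on both scalings, and rpl6 in 14 of 15 on total UMIs and 15 under the median gene ratio. rps26 was above 0 in 14 of 15 and 13 of 15, and rps10 in 0 and 1. The same genes were compared in empty droplets, where the log2 ratios were 0.23 for rpl26, 0.55 for rpl29, 0.37 for rpl6, 0.36 for rps26 and 0.00 for rps10. The genes that were higher in cells were thus higher in free RNA of the il26KO library also.

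Among the lowest ratios in progenitor-like cells were those of rpl22l1 and rps10. rpl22l1 had 1635 and 1388 CPM (-0.24), and rps10, a small-subunit gene mutated in some patients with Diamond-Blackfan anaemia, 4823 and 4348 CPM (-0.15). Beside rpl26, the highest ratios were those of rps19bp1 at 0.31 (-0.20 to 0.84) and rps27l at 0.29 (-0.01 to 0.59), whose intervals include 0.

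**Figure D5:**
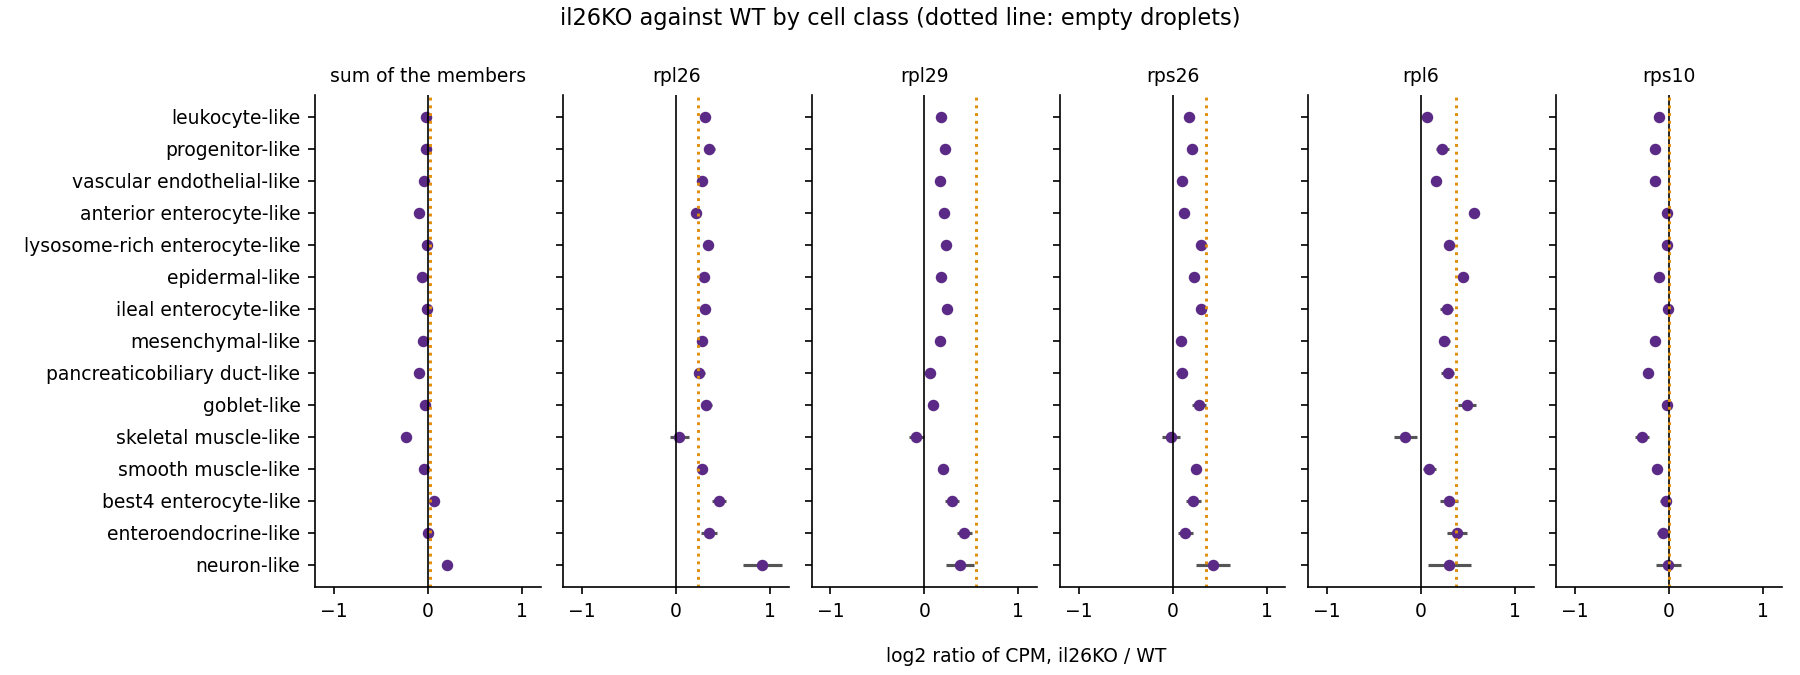
Log2 ratio of CPM in il26KO over WT (horizontal axis, scaled by total UMIs) by cell class for the summed members and for rpl26, rpl29, rps26, rpl6 and rps10, with bars for exact 95% counting intervals and a dotted line for empty droplets. The sum runs from -0.24 in skeletal muscle-like to 0.20 in neuron-like cells, with 2 classes higher beyond counting error on this scaling and 5 on the median gene ratio, and rpl26 lies above 0 in 15 of 15 classes on both.

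Among the genes outside the rule whose log2 CPM was most like that of the summed members, over the 28 values of 14 classes in 2 libraries, were rplp1 (Pearson r of 0.99), rpsa (0.97), eef1b2 (0.96) and rplp0 (0.96). Of these, rplp0, rplp1 and rpsa code for ribosomal proteins that the rule did not take by symbol, and eef1b2 for an exchange factor of elongation factor 1. The points share libraries and totals, and the correlations are given as a description.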

How the data were processed

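Dissociated gut cells were sequenced on the 10x Genomics droplet platform. The deposited files are raw matrices of UMI counts per barcode and gene, written by the authors' run of Cell Ranger 7.1.0 (per the file headers), and the submitters' processing notes name genome build danRer11. Which annotation release was used, and whether intronic reads were counted, is not given in the sources used here, and the authors' cell annotation was not used here. The WT and il26KO files hold 125236138 and 122200924 UMIs in 1867865 and 1870103 barcodes. Of these UMIs, 79.5% and 78.9% lay in kept cells.

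Cells had at least 500 genes and at most 25% mitochondrial UMIs, a limit that removed 309 and 300 barcodes. Scrublet (scanpy 1.11.5) called 1 doublet per library by its own threshold, which was taken as not having worked, so the cells of highest score were removed at 0.8% per 1000 cells, 229 in WT and 126 in il26KO. Clustering used Seurat 5.3.0 in R 4.3.3 (log-normalization, 2000 variable genes without mitochondrial genes, members and listed genes, canonical correlation integration, 30 dimensions, Louvain resolution 0.8). A cluster was named by the marker list, of 18, with the highest geometric mean fold over the other clusters (pseudocount of 20 CPM), given 3 or more markers that were both seen in 10% of its cells or more and raised 2-fold or more.

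UMIs were summed per class and library. Shares carry exact Clopper-Pearson intervals and ratios of summed UMIs exact conditional 95% intervals. Ratios of single genes used a pseudocount of 1 UMI, divided in proportion to the totals, and genes with at least 10 UMIs in the compared cells. Empty droplets were barcodes of 10 to 100 UMIs (11759 and 12127). Intervals were tested on simulated independent counts (Poisson), the model they assume, so that test does not cover spread between cells or animals. A log2 ratio of 1 between classes or 0.5 between genotypes counted as past the fold used. Named were the 5 highest and 5 lowest members between progenitor-like and mature cells, the 3 highest and 3 lowest between genotypes in progenitor-like cells, the 6 of largest SD over classes, paralogs, and the 5 most alike genes outside the rule. rpl29, rps26 and the clusters described were chosen after their values were seen. A few items are not reported here. The members and lists were chosen with earlier results of these data known. Alternatives covered cell filters, doublets, integration, resolution, scaling, weighting and depth.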

Additional observations from a re-analysis of the deposited data

Results flagged for a closer look

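With 1 library per genotype these differences in sign were not tested, and they rest on counting intervals alone. The summed members were higher in il26KO in best4 enterocyte-like cells, at a log2 ratio of 0.068, and in neuron-like cells, at 0.201, whereas 12 of the 15 classes were lower in il26KO. In best4 enterocyte-like cells, whose median depth was 10658 UMIs in WT and 16779 in il26KO, the direction turned with depth. The share was higher in il26KO from 2000 to 5000 UMIs (11.5% in WT and 12.1% in il26KO) and from 5000 to 20000 (17.8% and 19.1%), and lower below 2000 (13.8% and 11.3%, from 10 and 6 cells) and from 20000 (23.0% and 19.9%, from 11 and 38 cells). Among single members, 3 had intervals on opposite sides of 0 in progenitor-like and in mature epithelial cells when scaled by total UMIs. rpl23a stood at 0.047 in progenitor-like and -0.045 in mature cells, and its interval in progenitor-like cells began at 0.0002. rps27a, whose product is a fusion of ubiquitin and a small-subunit protein, stood at 0.044 and -0.032. rps4x stood at 0.068 and -0.106, the widest gap of these. Scaling by the median gene ratio lowered log2 ratios by 0.117 in progenitor-like and by 0.097 in mature cells. All 3 genes then lay below 0 in both, so the difference in sign did not remain.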

How the results depend on the processing

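No paired analysis was possible because each group has 1 library. The cause of each shift below was not tested. Values follow in the order progenitor-like over mature in WT, then in il26KO, then il26KO over WT in progenitor-like, mature and all kept cells (log2). They were 0.278, 0.281, -0.0509, -0.0542 and -0.0363 with at least 300 genes, 0.467, 0.453, -0.0839, -0.0702 and -0.0442 with at least 1000, 0.445, 0.457, -0.0443, -0.0562 and -0.0370 with at most 10% mitochondrial UMIs, -0.360, -0.413, -0.137, -0.157 and -0.0739 with median gene ratio scaling, 0.589, 0.638, -0.0301, -0.0791 and -0.0550 per UMI outside the members, 0.374, 0.386, -0.0344, -0.0462 and -0.0169 with equal weight per cell, and 0.787, 0.782, -0.118, -0.113 and -0.0720 in cells of 5000 to 20000 UMIs. The first 3 were 0.316, 0.307 and -0.0681 with doublets kept. Without integration the first 2 were 0.42 and 0.46. Without mitochondrial UMIs in the total, WT was 0.364, il26KO 0.421, mature -0.0742 and all cells -0.0459. Leaving out the progenitor-like cluster led by mki67 gave 0.503, 0.487, -0.0767 and, over all cells, -0.0447, and leaving out those led by ube2c or nanos1 as well gave 0.504, 0.487, -0.0767 and -0.0443. The depth range and the left-out clusters were chosen after seeing the data. For the summed comparisons listed here, the median gene ratio alone reversed a direction, that between progenitor-like and mature cells. Within single classes it also turned il26KO over WT from -0.02 to 0.02 in leukocyte-like and from -0.24 to 0.03 in skeletal muscle-like cells. Depth bands other than 5000 to 20000 UMIs, where the il26KO progenitor-like share was the higher, were not run as alternatives.

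Members at least 2-fold higher in progenitor-like WT cells numbered 0 with at least 300 genes, doublets kept, median gene ratio scaling, mitochondrial UMIs left out or equal weight, and 5 in cells of 5000 to 20000 UMIs. In il26KO the count was 2 per UMI outside the members, 1 with equal weight and 8 in the depth range. Members higher in il26KO progenitor-like cells numbered 12 with at least 300 genes or doublets kept, 11 with at least 1000 genes, 7 under the median gene ratio, 13 in the depth range and 15 without the mki67 cluster or without all 3 kinds of cluster. Classes higher in il26KO numbered 4 of 16 with at least 300 genes and 5 under the median gene ratio.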

Other observations

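Between the genotypes, the lists beside the members differed in direction on total-UMI scaling, where the median log2 ratio of il26KO over WT over all genes tested was 0.11 in progenitor-like and 0.09 in mature epithelial cells. Of all genes tested, 58.3% and 59.9% were above 0. The ribosomal genes outside the rule lay low like the members, with 2 of 7 above 0 and medians of -0.06 in progenitor-like and -0.05 in mature cells. Translation factors had medians of 0.01 (18 of 33 above 0) and -0.08 (11 of 34). Ribosome biogenesis genes had 0.23 in progenitor-like cells (49 of 61 above 0) and 0.05 in mature cells (38 of 62). Genes for mitochondrial ribosomal proteins had -0.01 (34 of 74) and 0.22 (64 of 74). S-phase genes had 0.08 (11 of 18) and 0.39 (18 of 18), and G2/M genes 0.11 (14 of 18) and 0.40 (17 of 18). Summed S-phase CPM in progenitor-like cells was 1491 (WT) and 1488 (il26KO). In empty droplets summed CPM was also higher in il26KO for S-phase (325 and 421), G2/M (623 and 677), mitochondrial ribosomal (2047 and 2677) and biogenesis genes (1805 and 2072). It was lower for translation factors (21444 and 19335) and ribosomal genes outside the rule (32898 and 31832). The part of free RNA was not tested.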
